A study of Mus musculus with 12 samples.

Results

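Elastic fibres give a vessel wall its recoil. They consist of a core of cross-linked elastin laid down on a scaffold of microfibrils, whose backbone is fibrillin, with fibulins, microfibril-associated proteins and emilins at their surface. Lysyl oxidases are copper enzymes that oxidise lysine side chains in elastin and collagen, the step from which the covalent cross-links form, and in veins these fibres lie among smooth muscle cells and fibroblasts of the media and adventitia. Described here are 10 genes of this system, chosen by name from the 43346 genes of the deposited table. They are the elastin gene Eln, 5 genes of the scaffold and its partners (Fbn1, Fbln5, Mfap4, Mfap5 and Emilin1) and 4 lysyl oxidase genes (Lox, Loxl1, Loxl2 and Loxl3). All 10 were found, and all 10 were among the 18965 genes that passed the filter on low counts.

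The study sequenced RNA of mouse veins taken 7 days after surgery. Mice of the AVF-CKD group (n = 6) had AVF-CKD surgery, and the AVF's venous limb was taken. Sham mice (n = 6) had a sham operation, and the jugular vein was taken. The letters are read here as arteriovenous fistula, in which a vein is joined surgically to an artery, and chronic kidney disease. The labels give no strain, age or way in which kidney disease was made, and do not state whether every library had a mouse of its own. The p-values therefore measure only how far these libraries spread, which may be in part technical. Surgery and, on this reading, vessel and disease model differ together between the groups and cannot be told apart. The libraries are called by group and title number (AVF-CKD 1 to 6 and sham 1 to 6).

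Library totals ran from 38653830 to 52003341 counts in AVF-CKD and from 43445591 to 60142016 counts in sham. Vein wall markers were present in every library: Acta2, the smooth muscle actin gene, was at 473 to 896 CPM (counts scaled to the library total) in AVF-CKD and 678 to 1144 CPM in sham, and Pecam1, an endothelial adhesion gene, at 297 to 518 CPM in AVF-CKD and 367 to 455 CPM in sham. Other tissue was carried along in some libraries. The summed level of 10 skeletal muscle genes was 881 to 12768 CPM in AVF-CKD and 513 to 13173 CPM in sham, highest in AVF-CKD 2 and sham 4. The summed level of 10 fat genes was 853 to 1759.5 CPM in AVF-CKD and 1042 to 4703 CPM in sham, with sham 6 highest. Sham 6 also held the highest sum of 10 gland and epithelial genes, 39.8 CPM, against at most 9.79 CPM in AVF-CKD. Of that list, Smr2 had 0 counts in all 12 libraries, and Muc19 and Dcpp1 had 0 counts in all 6 AVF-CKD libraries. The clock-controlled gene Dbp was at 7.65 CPM in AVF-CKD 6 and 77.7 to 99.6 CPM in the other AVF-CKD libraries, and at 6.15 to 21.4 CPM in sham 4, 5 and 6 and 93.3 to 107 CPM in sham 1, 2 and 3. With skeletal muscle and fat scores as covariates, the median log2 fold change of the 10 genes was -0.05, against -0.11 without them, and none of the 10 was called. The part of the gland genes and of Dbp in the results was not tested. In bulk tissue, fewer cells of a type and less RNA per cell cannot be told apart.

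The chemistry that links the enzymes to elastin can be read in their coding sequences, and 2 short stretches of it are shown. The first holds the cluster of histidines through which lysyl oxidases bind copper. It is given for 3 of the 4 enzymes as 45 coding bases, 5′ to 3′ on the coding strand, with histidine codons in capitals, from GENCODE M21 transcripts of GRCm38. Each stretch crosses an exon junction, so the coordinates span an intron.
Loxl1 (chr9:58293714-58294387, minus strand, exons 3 and 4): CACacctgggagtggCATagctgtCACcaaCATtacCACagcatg
Loxl2 (chr14:69682310-69689043, plus strand, exons 10 and 11): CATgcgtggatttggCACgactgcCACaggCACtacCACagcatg
Loxl3 (chr6:83049989-83050131, plus strand, exons 10 and 11): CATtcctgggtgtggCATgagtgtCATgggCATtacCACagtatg
Each stretch was found by a fixed pattern of 2 tryptophan codons (tgg) followed by 4 histidine codons, so the places of these were set in advance. The remaining histidine codon, the first of each stretch, was not part of the pattern and stood in all 3. With the bases of the pattern included, Loxl1 and Loxl2 shared 31 of the 45 bases, and Loxl3 shared 34 with Loxl1 and 34 with Loxl2.

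The second stretch is a piece of elastin itself, the substrate. The Eln coding sequence has 860 codons, of which 38 are for lysine. In 12 places a pair of lysine codons stood apart by 2 or 3 alanine codons, the spacing that lets neighbouring lysines be cross-linked. The 60 bases below, from exons 18 and 19, are the stretch of this kind with the most alanine and lysine codons, with lysine codons in capitals.
Eln (chr5:134718160-134719040, minus strand): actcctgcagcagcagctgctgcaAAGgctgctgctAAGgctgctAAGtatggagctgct

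In both groups Eln was the most abundant of the 10 genes per length. Levels between genes are given as RPKM, here TMM-scaled CPM per kb of the gene length in the deposited table (TMM is edgeR's trimmed-mean scaling between libraries). Eln averaged 1057 RPKM ± 413 in AVF-CKD and 1244 RPKM ± 576 in sham (SD, n = 6 each). Mfap4, which encodes a microfibril-associated protein of elastic fibres, came next, at 306 RPKM ± 66.6 in AVF-CKD and 461 RPKM ± 187 in sham. With the deposited lengths, Eln exceeded Mfap4 in 6 of 6 libraries of each group.

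Below these, some neighbours in the order of levels overlapped and others did not. In AVF-CKD the means of Lox (144 RPKM ± 45.7) and Mfap5 (142 RPKM ± 17.1) did not differ beyond their spread, and Lox was the higher in 2 of 6 libraries. In sham, where Eln and Mfap4 were also highest, Mfap5 stood at 175 RPKM ± 24.3 and Lox at 149 RPKM ± 24.3, with Mfap5 the higher in 5 of 6. Loxl1 followed, at 118 RPKM ± 10.9 in AVF-CKD and 132 RPKM ± 25.5 in sham. Then came Fbn1 (94.2 RPKM ± 20.95 in AVF-CKD, 90.4 RPKM ± 6.99 in sham) and Loxl2 (73.5 RPKM ± 10.6 in AVF-CKD, 63.6 RPKM ± 9.98 in sham). Fbn1 exceeded Loxl2 in every library of both groups. In sham the ranges of Loxl1, Fbn1 and Loxl2 did not overlap between neighbours, and in AVF-CKD they did. Emilin1, Loxl3 and Fbln5 were the lowest, with means of 29.8 to 37.0 RPKM in AVF-CKD and 31.2 to 35.9 RPKM in sham, and their ranges overlapped between neighbours in both groups. In AVF-CKD the range of Loxl2 lay above that of Emilin1 without overlap. The table gives Eln a length of 2583 bases, 3 more than the 2580 coding bases annotated without the stop codon, while its longest GENCODE transcript has 3853 bases. For Mfap4 these lengths are 1922 and 1770 bases. The level of Eln per length thus depends on which is used, and with the longest transcripts Mfap4 would exceed Eln in sham 2.

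**Figure D1:**
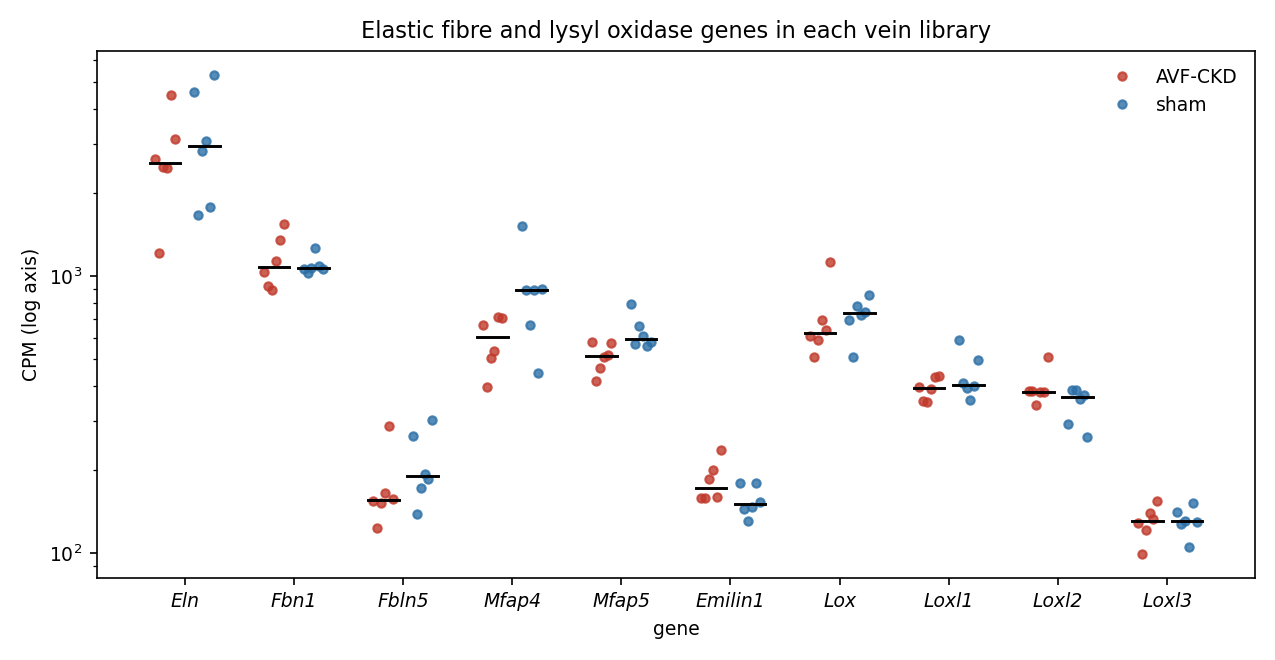
CPM of the 10 genes (log axis) in each of the 6 AVF-CKD libraries (red, left of each pair) and the 6 sham libraries (blue, right), with a black bar at the group median. The groups overlap for every gene, and Eln spans 1209 to 4485 CPM in AVF-CKD and 1666 to 5320 CPM in sham.

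The comparison of AVF-CKD with sham asks whether RNA for elastic fibre assembly differed between the fistula vein and the sham vein at 7 days. None of the 10 genes passed the test: edgeR's quasi-likelihood F-test, with Benjamini-Hochberg adjustment over all 18965 genes and a threshold of 0.05, called 0 of the 10 higher and 0 lower, and the background was 0% of all genes in either direction. With the adjustment left aside, 2 of the 10 had a p below 0.05 (background 9.34%). None of these was higher (background 5.26%), and 2, Mfap4 and Mfap5, were lower (background 4.08%). limma voom called 0 of all genes (2124 at an unadjusted p below 0.05). DESeq2 called 102 genes, 0.56% of the 18210 with an adjusted p, and none of the 10. The groups overlapped for all 10 genes, where 0.638% of all genes did not overlap, 0.417% with AVF-CKD above and 0.221% with AVF-CKD below. Log2 fold changes of AVF-CKD over sham were positive for 3 of the 10 genes and negative for 7, against 49.1% positive and 50.9% negative over all genes. Their median was -0.11, against -0.00248 over all genes. For 7 of the 10 the 95% interval lay within 1.5-fold in either direction, as it did for 65.3% of all genes. Eln, Fbln5 and Mfap4 were the exceptions.

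**Figure D2:**
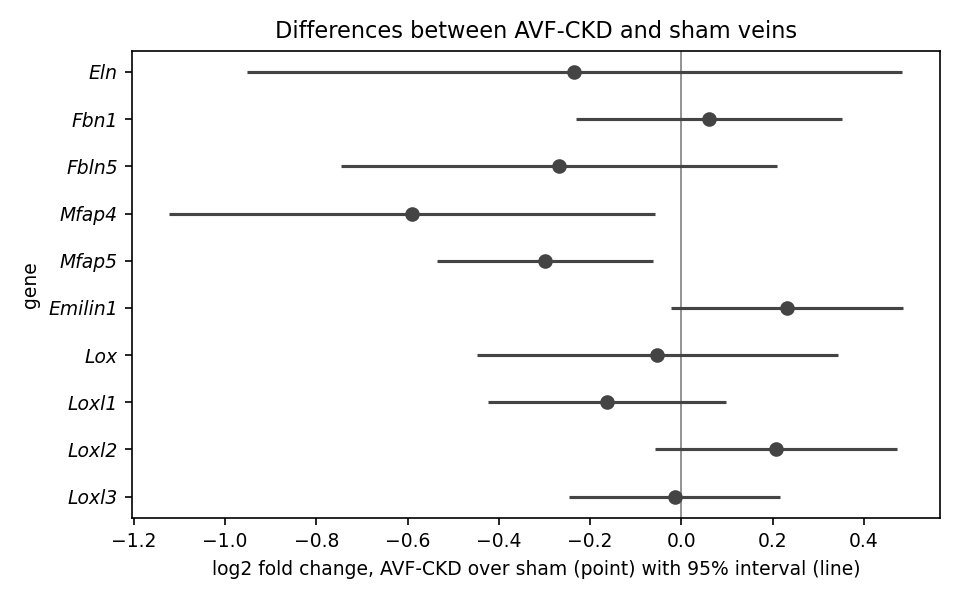
Log2 fold change of AVF-CKD over sham (points) with the 95% interval (lines) for each gene, from edgeR over 6 libraries a group. The intervals of Mfap4 (-1.12 to -0.06) and Mfap5 (-0.54 to -0.06) lie below 0 before adjustment for the number of genes tested, and those of the other 8 genes include 0.

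Eln (ENSMUSG00000029675, GRCm38 chromosome 5, 134703781 to 134747241) encodes tropoelastin. It had a lowest value of 1209, a median of 2554 and a highest value of 4485 CPM in AVF-CKD, against 1666, 2945.5 and 5320 CPM in sham. Each group thus held libraries low and high in Eln, and the ranges overlapped over most of their length. The log2 fold change was -0.23 ± 0.33 (SE; edgeR adjusted p = 0.861), with a 95% interval of -0.95 to 0.48. Sham 6, the library with the most fat and gland RNA, was also the highest in Eln, and without it the log2 fold change was -0.03. It was -0.09 without AVF-CKD 2, the lowest library and the highest of its group in skeletal muscle genes. Other libraries did not follow this: sham 4, the highest of its group in skeletal muscle genes, had 3068 CPM of Eln, above the sham median. AVF-CKD 5 and sham 1, also high in Eln (4485 and 4625 CPM), had fat sums of 1209 and 1727 CPM. With scores of skeletal muscle and fat genes as covariates the log2 fold change was -0.05 (edgeR adjusted p = 0.992). It was more negative, at -0.43 (edgeR adjusted p = 0.714), without AVF-CKD 5, the highest library of its group. Eln had the highest coefficient of variation of the 10 genes in both groups, 39.1% in AVF-CKD and 46.3% in sham, although it had at least 46771 counts in every library.

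Fbn1 (ENSMUSG00000027204, chromosome 2, 125300594 to 125507993) encodes fibrillin-1, the backbone of microfibrils. Its lowest, median and highest values were 888, 1080.4 and 1537 CPM in AVF-CKD, against 1029, 1066 and 1265 CPM in sham. The medians were close, and AVF-CKD libraries lay on both sides of the sham range, 2 above it and 2 below it. On the log2 scale the fold change was 0.06 ± 0.14 (edgeR adjusted p = 0.921), and it was -0.04 without AVF-CKD 6, the highest library. Its coefficient of variation was 22.2% in AVF-CKD and 7.74% in sham. Another gene model on the opposite strand, Gm9913, overlaps 20.1% of the exonic bases of Fbn1, and the libraries do not mark strand.

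Mfap4 (ENSMUSG00000042436, chromosome 11, 61485431 to 61488900) had the most negative fold change of the 10 genes. It had a lowest value of 397, a median of 601 and a highest value of 714 CPM in AVF-CKD, against 446, 892 and 1520.3 CPM in sham. None of the 6 AVF-CKD libraries reached the sham median, while 5 of the 6 lay inside the sham range. The log2 fold change was -0.59 ± 0.25 (95% interval -1.12 to -0.06, unadjusted p = 0.0323, edgeR adjusted p = 0.502). Sham 1 had the highest value, and without it the log2 fold change was -0.37 (unadjusted p = 0.0978, edgeR adjusted p = 0.740). Without sham 5, the lowest sham library, it was -0.73 (unadjusted p = 0.00513, edgeR adjusted p = 0.300).

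Mfap5 (ENSMUSG00000030116, chromosome 6, 122505845 to 122529290) encodes the microfibril glycoprotein MAGP-2, which binds fibrillins. Its lowest, median and highest values were 419, 514 and 578 CPM in AVF-CKD, against 559.8, 595 and 790.4 CPM in sham. No AVF-CKD library reached the sham median, and 4 of 6 lay below the lowest sham library. The log2 fold change was -0.30 ± 0.11 (95% interval -0.54 to -0.06, unadjusted p = 0.0175, edgeR adjusted p = 0.479), the lowest p of the 10 genes. It stayed between -0.34 and -0.22 when any single library was left out, with edgeR adjusted p-values of 0.354 to 0.727.

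Both Mfap4 and Mfap5 differed in size between subsets of the libraries. Among libraries with title numbers 1 to 3 the log2 fold changes were -0.98 for Mfap4 and -0.47 for Mfap5, and among numbers 4 to 6 they were -0.19 for Mfap4 and -0.13 for Mfap5. These subsets are not batches given by the labels, and the difference between them was not tested. Dbp was spread differently in them. In numbers 1 to 3 it was at 81.5 to 94.1 CPM in AVF-CKD and 93.3 to 107 CPM in sham. In numbers 4 to 6 it was at 7.65 to 99.6 CPM in AVF-CKD and 6.15 to 21.4 CPM in sham. Unadjusted edgeR p-values were 0.0232 for Mfap4 and 0.0314 for Mfap5 in numbers 1 to 3 (adjusted p = 0.463 and 0.471). In numbers 4 to 6 they were 0.518 and 0.239 (adjusted p = 0.825 and 0.654). Markers of smooth muscle and fibroblasts, cells that make elastic fibres, had negative median fold changes too, with no gene called. Of 10 smooth muscle genes 7 had negative fold changes (median -0.26), and their summed level was 1317 to 2422 CPM in AVF-CKD and 1975 to 2729 CPM in sham. Of 10 fibroblast genes 7 had negative fold changes (median -0.20), with sums of 11513 to 19168 CPM in AVF-CKD and 12469 to 19419 CPM in sham. Other cell types' lists also had negative medians: all 10 fat genes (median -0.90), all 10 endothelial genes (median -0.18) and 9 of 10 skeletal muscle genes (median -0.25) had negative fold changes. The macrophage list had 6 of 10 positive (median 0.19). At an unadjusted p below 0.05, 3 smooth muscle, 3 endothelial and 5 fat genes were lower (background 4.08%). For the fibroblast, skeletal muscle and macrophage lists that count was 0. None of these lists had a gene higher at that level (background 5.26%). With skeletal muscle and fat scores as covariates, Mfap4 was at -0.57 (unadjusted p = 0.0898, edgeR adjusted p = 0.801) and Mfap5 at -0.34 (unadjusted p = 0.0243, edgeR adjusted p = 0.765). The part of the other lists was not tested.

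Fbln5 (ENSMUSG00000021186, chromosome 12, 101746565 to 101819055) encodes fibulin-5, which helps place elastin on microfibrils and binds cell-surface integrins. Its lowest, median and highest values were 124, 156 and 289 CPM in AVF-CKD, against 138, 189.6 and 302 CPM in sham. Only AVF-CKD 5 exceeded the sham median. AVF-CKD over sham was -0.27 ± 0.22 on the log2 scale (edgeR adjusted p = 0.742), and without AVF-CKD 5 it was -0.47 (edgeR adjusted p = 0.415). Without sham 6, the highest sham library, it was -0.13 (edgeR adjusted p = 0.912).

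Emilin1 (ENSMUSG00000029163, chromosome 5, 30913402 to 30921278) encodes a glycoprotein at the interface of elastin and microfibrils, known in mice to limit TGF-beta signalling. It ran from 158 CPM through a median of 172 CPM to 236 CPM in AVF-CKD, against 131, 150.004 and 179.985 CPM in sham. All 6 AVF-CKD libraries exceeded the sham median, and 3 exceeded the highest sham library. The log2 fold change was 0.23 ± 0.12 (95% interval -0.02 to 0.49, unadjusted p = 0.0713, edgeR adjusted p = 0.566). Without AVF-CKD 6, the highest library, it was 0.14 (unadjusted p = 0.189, edgeR adjusted p = 0.754). Without sham 1 it was 0.28 (unadjusted p = 0.0429, edgeR adjusted p = 0.678). Its sign was thus opposite to those of Mfap4 and Mfap5, and none of the 3 passed the test.

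Lox (ENSMUSG00000024529, chromosome 18, 52516069 to 52529867) encodes lysyl oxidase itself, secreted as a proenzyme. It had a lowest value of 508, a median of 622 and a highest value of 1124 CPM in AVF-CKD, against 509, 734 and 856 CPM in sham. A single AVF-CKD library, number 6, lay above the sham median and above all sham libraries, and the other 5 lay at or below 693 CPM. AVF-CKD differed from sham by -0.05 ± 0.18 on the log2 scale (edgeR adjusted p = 0.951), and without AVF-CKD 6 it was -0.24 (unadjusted p = 0.0840, edgeR adjusted p = 0.660).

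Loxl1 (ENSMUSG00000032334, chromosome 9, 58287723 to 58313212) encodes the family member that in mice is needed to maintain elastic fibres. Its values ran from 351 through a median of 395 to 437 CPM in AVF-CKD, against 357, 406 and 587 CPM in sham. The groups overlapped, and the highest pair of libraries, sham 1 and 6, were above all of AVF-CKD. Its log2 fold change was -0.16 ± 0.12 (edgeR adjusted p = 0.714), and without sham 1 it was -0.06 (edgeR adjusted p = 0.922). Without sham 4, the lowest sham library, it was -0.22 (edgeR adjusted p = 0.599). Its coefficient of variation was the lowest of the 10 genes in AVF-CKD (9.27%) and 19.3% in sham.

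Loxl2 (ENSMUSG00000034205, chromosome 14, 69609068 to 69695834) encodes a member with scavenger receptor domains, known for cross-linking of basement membrane collagen. It ran from 341 through a median of 383 to 509 CPM in AVF-CKD, against 262, 367 and 389 CPM in sham. AVF-CKD 6 was the highest library, and sham 1 and 6 were the lowest. Its log2 fold change was 0.21 ± 0.12 (95% interval -0.06 to 0.47, edgeR adjusted p = 0.632).

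Loxl3 (ENSMUSG00000000693, chromosome 6, 83034173 to 83052562), a member with the same kind of domains, was the least counted gene, with 3850 to 8379 counts per library. It ran from 99.5 through a median of 131 to 155 CPM in AVF-CKD, against 105, 130.2 and 151 CPM in sham. The groups covered nearly the same range, and differed by -0.01 ± 0.11 on the log2 scale (edgeR adjusted p = 0.979). Of its exonic bases, 11.6% are overlapped by Htra2 on the opposite strand.

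The make-up of the family was compared as the share each gene had of the summed counts per kb of Lox, Loxl1, Loxl2, Loxl3 and Loxl4, a description with no test. Lox held 38.2% ± 4.58 in AVF-CKD and 39.2% ± 4.84 in sham (SD, n = 6 each), and Loxl1 held 32.3% ± 3.15 in AVF-CKD and 34.7% ± 4.89 in sham. Loxl2 held 19.95% ± 1.54 (18.9% to 22.9%) in AVF-CKD and 17.0% ± 3.70 (11.8% to 21.4%) in sham. Loxl3 held 8.38% ± 0.697 in AVF-CKD and 8.22% ± 0.877 in sham, and Loxl4 1.18% ± 0.447 in AVF-CKD and 0.931% ± 0.250 in sham. These means differed by less than 1 SD of the sham libraries, though those of Loxl2 differed by more than 1 SD of the AVF-CKD libraries. The lowest Loxl2 shares belonged to sham 6 and sham 1. Set against the substrate, the 5 enzymes together had 39.3% ± 14.9 of the counts per kb of Eln in AVF-CKD (21.4% to 66.4%) and 36.0% ± 14.97 in sham (19.8% to 55.8%). With the longest annotated transcript as each gene's length, the same ratio was 59.6% ± 22.6 in AVF-CKD and 54.5% ± 22.7 in sham.

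**Figure D3:**
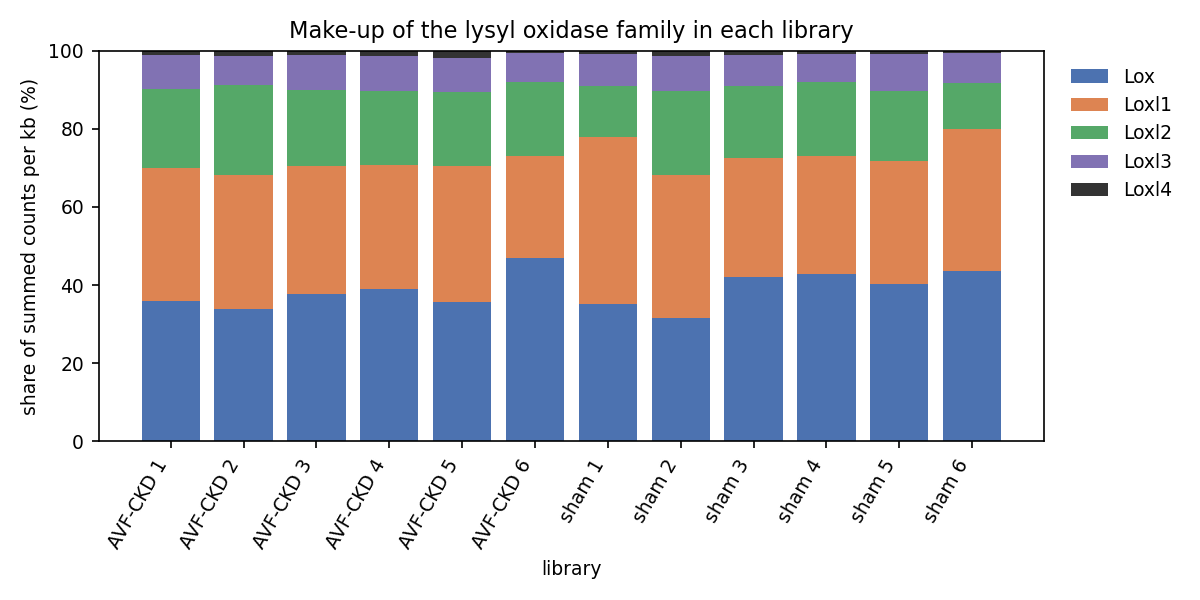
Share (%) of the summed counts per kb of the 5 lysyl oxidase genes held by each gene, as stacked bars for the 6 AVF-CKD and then the 6 sham libraries. Lox is the largest part of the bar in every library other than AVF-CKD 2, sham 1 and sham 2, at 34.0% to 46.9% in AVF-CKD and 31.5% to 43.5% in sham.

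How the 10 genes varied together among libraries was then described. After the group means were removed, Pearson correlations of log2 CPM over the 12 libraries were positive for 41 of the 45 pairs, with a median of 0.384. By permutation within groups (100000 draws, two-sided, Benjamini-Hochberg over the 45 pairs) none of the 45 passed 0.05, and the lowest adjusted p was 0.0738 for r and 0.0684 for rho. With DESeq2 size factors in place of TMM a single pair passed by rho and none by r. That pair was Eln with Fbln5 (rho = 0.916, permutation p = 0.00062, adjusted p = 0.0279), and its rho was 0.727 (permutation p = 0.0191, adjusted p = 0.113) with TMM and without sham 6. All pairs share libraries, depth and scaling.

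The closest pair was Eln with Fbln5, with r = 0.879 (permutation p = 0.00164, adjusted p = 0.0738) and Spearman's rho = 0.881 (permutation p = 0.00152, adjusted p = 0.0684). Without the 2 libraries farthest from the median of Eln, r was 0.843. Within groups r was 0.851 in AVF-CKD and 0.906 in sham. The same 3 libraries, AVF-CKD 5, sham 1 and sham 6, had the highest values of both genes. Mfap4 with Mfap5 gave r = 0.753 (permutation p = 0.00801, adjusted p = 0.163) and rho = 0.720 (permutation p = 0.0146, adjusted p = 0.131), with r = 0.594 without the 2 libraries farthest from the median. Its r within AVF-CKD was 0.911 and within sham 0.700. Lox was closest to Fbn1 among the members, with r = 0.709 (permutation p = 0.0161, adjusted p = 0.163), rho = 0.664 (permutation p = 0.0144, adjusted p = 0.131) and r = 0.549 without the 2 farthest libraries. Within AVF-CKD their r was 0.838, and within sham it was 0.252.

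All 4 negative pairs held Loxl2, with Eln, Fbln5, Mfap4 and Loxl1. With Eln it had r = -0.435 (permutation p = 0.187, adjusted p = 0.366) and rho = -0.545 (permutation p = 0.0976, adjusted p = 0.258), with r = -0.390 without the 2 farthest libraries. Within groups, r was 0.188 in AVF-CKD and -0.884 in sham. The difference between these correlations was not tested, and each rests on 6 libraries.

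**Figure D4:**
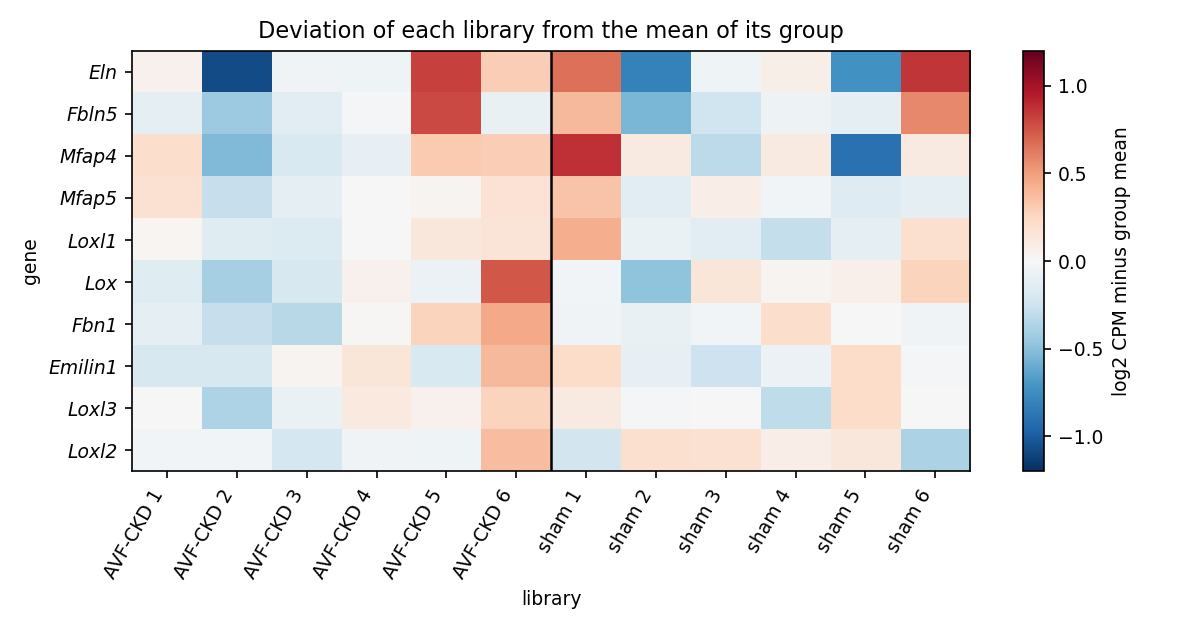
Deviation of each library from its group mean (log2 CPM, colour scale) for the 10 genes in rows and the 6 AVF-CKD and then the 6 sham libraries in columns. Eln and Fbln5 are above their group mean in AVF-CKD 5, sham 1 and sham 6 and below it in AVF-CKD 2 and sham 2, and AVF-CKD 6 is high in Lox, Fbn1, Emilin1 and Loxl2.

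**Figure D5:**
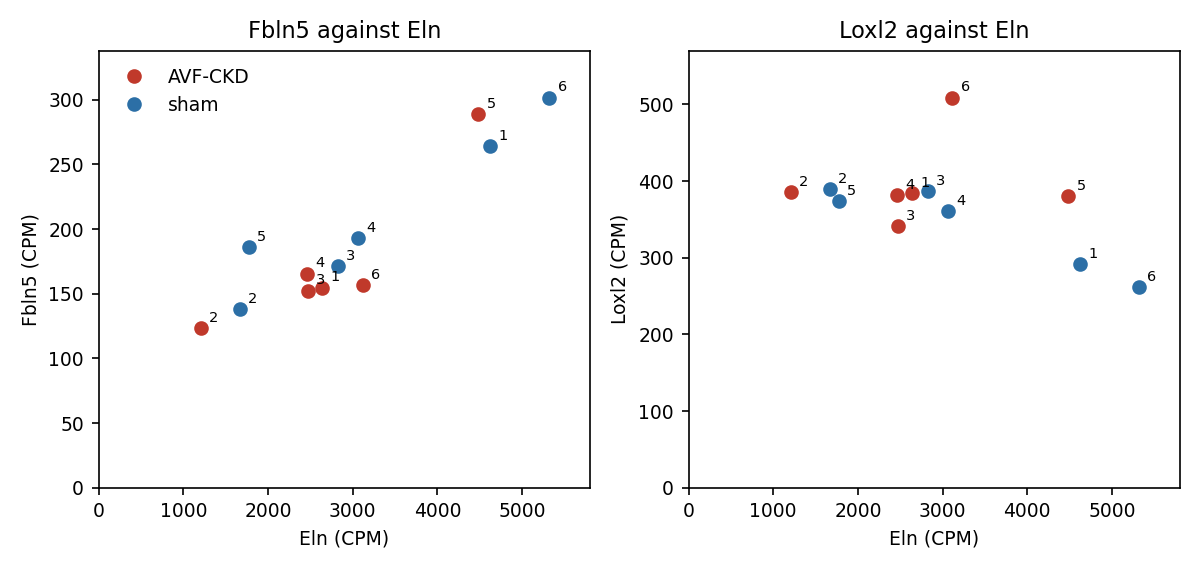
CPM of Fbln5 (left panel) and Loxl2 (right panel) against CPM of Eln, with a point for each AVF-CKD library (red) and each sham library (blue) labelled by title number. Fbln5 and Eln are highest together in AVF-CKD 5, sham 1 and sham 6, and Loxl2 is lowest in sham 1 and sham 6.

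Among 13589 tested genes with a mean of 1 CPM or more, the 5 most like Eln over the 12 libraries, group means removed, were Chrdl1 (r = 0.952), a BMP antagonist gene, Apcdd1 (0.948), an inhibitor of Wnt signalling, the ion channel gene Trpm3 (0.945), Rbms2 (0.934) and Timp3 (0.931), which encodes a metalloproteinase inhibitor bound to matrix. These were taken as the highest of all genes and carry no test. The r of 0.879 between Eln and Fbln5, the highest of Eln with a member, was higher than or equal to that of 99.8% of the genes searched. The lowest, with Loxl2, was higher than or equal to that of 21.3%.

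The other genes of the pathway were taken from 6 lists, and none of their tested members passed the edgeR test (adjusted p from 0.368 upward). Of 20 further elastic fibre genes 11 had positive and 9 negative fold changes (median 0.02), with 1 higher (background 5.26%) and 2 lower (background 4.08%) where p below 0.05 was read without adjustment. Emilin2, a relative of Emilin1, was at 138 CPM ± 13.6 in AVF-CKD and 103 CPM ± 16.6 in sham (SD, n = 6 each), which is 0.43 ± 0.11 on the log2 scale (edgeR adjusted p = 0.390). Every AVF-CKD library was above every sham library in Emilin2, as for 0.417% of all genes. Mfap2, which encodes the microfibril protein MAGP-1, was at 78.1 CPM ± 6.62 in AVF-CKD and 98.7 CPM ± 16.8 in sham, which is -0.34 ± 0.10 on the log2 scale (edgeR adjusted p = 0.407), with 4 of 6 AVF-CKD libraries below the lowest sham library. Emilin3, the remaining emilin gene of the list, was at 1.92 CPM ± 0.860 in AVF-CKD and 1.88 CPM ± 1.012 in sham (0.02 ± 0.37 on the log2 scale, edgeR adjusted p = 0.991). Bgn, the gene of the proteoglycan biglycan and the most abundant of this list per length, was at 638 RPKM in AVF-CKD and 678 RPKM in sham.

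Of 13 genes for the making of active lysyl oxidases and for related procollagen processing, 11 were tested, 8 positive and 3 negative (median 0.07), with 1 higher at an unadjusted p below 0.05 (background 5.26%). That gene, Adamts14, a procollagen protease, was at 29.6 CPM ± 4.61 in AVF-CKD and 21.9 CPM ± 4.75 in sham (log2 fold change 0.43 ± 0.14, edgeR adjusted p = 0.424). Bmp1, the protease that releases active lysyl oxidase from its proenzyme, was at 435 CPM ± 44.2 in AVF-CKD and 382 CPM ± 40.1 in sham (0.19 ± 0.09, edgeR adjusted p = 0.552). Atox1, a copper chaperone, had the highest level per length, 212 RPKM in AVF-CKD and 204 RPKM in sham.

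The 10 tested genes of ADAMTS-like and related microfibril proteins had 6 positive and 4 negative fold changes (median 0.06), with 2 higher at an unadjusted p below 0.05 (background 5.26%). These were Adamtsl1, at 16.0 CPM ± 5.20 in AVF-CKD and 11.8 CPM ± 1.43 in sham, and Adamtsl4, at 51.1 CPM ± 9.53 in AVF-CKD and 42.2 CPM ± 4.11 in sham (edgeR adjusted p = 0.503 for both). Adamts10, the most abundant per length, was at 24.6 RPKM in AVF-CKD and 27.3 RPKM in sham.

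Enzymes that can cut elastin had 8 positive and 3 negative fold changes among 11 tested (median 0.06), 2 of them higher at an unadjusted p below 0.05 (background 5.26%). Mmp9, a gelatinase gene, was at 53.3 CPM ± 27.3 in AVF-CKD and 16.7 CPM ± 4.86 in sham, with 5 of 6 AVF-CKD libraries above the highest sham library (1.67 ± 0.35 on the log2 scale, edgeR adjusted p = 0.368). Cela2a, a pancreatic elastase gene, stood at 1.73 CPM ± 0.252 in AVF-CKD and 1.196 CPM ± 0.142 in sham without overlap, as 0.417% of all genes were with AVF-CKD above (log2 fold change 0.53 ± 0.14, edgeR adjusted p = 0.390). Ctss, the cathepsin S gene, had the highest level per length, 926 RPKM in AVF-CKD and 874 RPKM in sham. Of 12 tested inhibitor genes 7 were positive and 5 negative (median 0.02), with 2 higher (background 5.26%) and 1 lower (background 4.08%) at an unadjusted p below 0.05. Cst3, the gene of the cathepsin inhibitor cystatin C, was at 731 CPM ± 120.4 in AVF-CKD and 982 CPM ± 263 in sham (log2 fold change -0.43 ± 0.18), and Timp1 at 303 CPM ± 58.0 in AVF-CKD and 233 CPM ± 49.0 in sham (0.38 ± 0.16; edgeR adjusted p = 0.502 for both). The remaining gene of these 3, Slpi, a secreted inhibitor of leukocyte elastase, was named after its values were seen. It was at 34.7 CPM ± 17.6 in AVF-CKD and 18.1 CPM ± 6.30 in sham (0.94 ± 0.41 on the log2 scale, edgeR adjusted p = 0.512), with 5 of 6 AVF-CKD libraries above the highest sham library. The 9 genes of elastin receptors and related integrins had 5 positive and 4 negative fold changes (median 0.14) and none at an unadjusted p below 0.05. Neu1, the sialidase of the elastin receptor complex, had a log2 fold change of 0.21 ± 0.13, and the integrin gene Itgav of 0.17 ± 0.13. Rpsa, a ribosomal and laminin-binding protein gene, had the highest level per length of this list, 367 RPKM in AVF-CKD and 381 RPKM in sham.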

How the data were processed

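The deposited table gave the authors' read counts (whole numbers), RPKM and a gene length in bases. The submitters' processing notes name GRCm38, TopHat2 (2.1.0), featureCounts and edgeR without roles. Annotation, strand setting and filters of the authors were not found in the labels, and per the labels' protocols the kit was TruSeq v2. Deposited RPKM values served only as an alternative. Library pairs differed by more than sampling noise, with chi-square over degrees of freedom at 44.4 to 197 in 66 pairs.

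Counts were filtered with filterByExpr, TMM-scaled and tested with edgeR 4.0.16 in R 4.3.3 (quasi-likelihood F-test, group only, Benjamini-Hochberg over 18965 genes, threshold 0.05). Each SE is the log2 fold change divided by the root of F. CPM use TMM-scaled totals, and log2 CPM a prior count of 2. Alternatives were DESeq2 1.42.0, limma 3.58.1 (voom, or log2 RPKM plus 0.1), other scalings, filters, covariates and subsets, and each library left out. The procedure was tested on simulated counts. In them each gene was drawn independently with the spread estimated from these libraries, and 66, 65 and 66 genes were changed 1.5-fold, 2-fold and 4-fold. There edgeR called 34.8% of genes changed 1.5-fold, 73.8% of those changed 2-fold and 90.9% of those changed 4-fold. Variation shared between genes, as from carried-along tissue, was not simulated, so these percentages need not hold for the real libraries. False calls were 4.38% of all calls for edgeR, 3.73% for limma voom and 25.6% for DESeq2. Members and lists were chosen with earlier results of these data known. Each pathway list is named by its 2 smallest p-values and its highest level per length, and likeness to Eln, Lox and Mfap5 by the 5 highest r among named genes. Marker genes and Dbp were picked after their values were seen. Of 43346 identifiers, 42462 were in GENCODE M21.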

Additional observations from a re-analysis of the deposited data

Results flagged for a closer look

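In 4 of the 20 sets of 6 libraries (10 genes in each group), a single library lay far from the others, with a gap to its nearest neighbour of over 0.625 of the whole range. For independent, normally distributed values this would occur in about 1 in 20 sets. CPM values need not be normal and the sets share libraries, so 4 of the 20 is not a tested excess. Fbln5 was at 289 CPM in AVF-CKD 5, where the next highest AVF-CKD library had 166 CPM and the gap was 0.745 of the range. Lox was at 1124 CPM in AVF-CKD 6 (next 693 CPM, gap 0.700 of the range), and Loxl2 at 509 CPM in the same library (next 385 CPM, gap 0.738). Fbn1 was at 1265 CPM in sham 4, where the next highest sham library had 1088 CPM and the gap was 0.747 of the range. Without AVF-CKD 6 the log2 fold change of Loxl2 was 0.12 (edgeR adjusted p = 0.824), and without sham 4 that of Fbn1 was 0.10 (edgeR adjusted p = 0.838).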

How the results depend on the processing

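Under the 26 alternatives run for each gene, none of the 10 genes was called higher or lower, and Eln, Fbln5, Mfap4, Mfap5, Emilin1 and Loxl2 kept their direction. The count of all genes called was 102 with DESeq2 and 0 to 1 when a library was left out, the 1 call coming without AVF-CKD 3. The median log2 fold change of the 10 genes was -0.28 within title numbers 1 to 3 and 0.043 within 4 to 6, and -0.22 to -0.024 when a library was left out. Directions turned for genes with fold changes near 0. Fbn1 was at -0.014 with limma voom and -0.15 within title numbers 1 to 3. Within title numbers 4 to 6, Lox was at 0.079, Loxl1 at 0.0068 and Loxl3 at 0.15, and Lox was at 0.020 with skeletal muscle and fat scores as covariates, where Eln was at -0.048. Leaving out a library gave -0.043 to 0.12 for Fbn1, -0.24 to 0.022 for Lox and -0.071 to 0.050 for Loxl3. The cause was not tested. Deviations of same-numbered libraries correlated at -0.109 to 0.277 over 6 pairs, 2 of the 6 best with their own number. These few correlations cannot settle whether the numbers pair the libraries, and the labels do not state it. With title number as a replicate block, 0 genes were called and the median of the 10 was -0.12. The median SE of the 10 genes was 0.129 on the log2 scale. The intervals given hold the differences compatible with these libraries gene by gene, and are not limits of detection after adjustment. A larger difference could also go uncalled: Mmp9, at 1.67 ± 0.35 on the log2 scale, did not pass (edgeR adjusted p = 0.368).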

Other observations

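Correlations of the 10 genes with mean log2 CPM of 6 marker lists (60 relations, group means removed, permutation within groups, Benjamini-Hochberg over the 60) were added after the data were seen. A single relation passed, that of Fbln5 with the 10 macrophage genes, with r = -0.894 (permutation p = 8e-05, adjusted p = 0.0048). Its rho was -0.867 (permutation p = 0.00132, adjusted p = 0.0792), its r without the 2 farthest libraries -0.812, and its r was -0.830 within AVF-CKD and -0.955 within sham. Eln had r = -0.762 with the same list (permutation p = 0.00933, adjusted p = 0.187), rho = -0.776 (permutation p = 0.0101, adjusted p = 0.302) and r = -0.696 without the 2 farthest libraries. Its r with the smooth muscle list was 0.521 (permutation p = 0.0922, adjusted p = 0.470), with rho = 0.552 (permutation p = 0.0759, adjusted p = 0.556) and r = 0.452 without the 2 farthest libraries. With the endothelial list Eln had a higher r of 0.620 (permutation p = 0.0389, adjusted p = 0.434), and 0.507 without the 2 farthest libraries. With the fat list the r of Eln was 0.424 (permutation p = 0.209), at -0.076 within AVF-CKD and 0.705 within sham. With the skeletal muscle list it was -0.354 (permutation p = 0.295), at -0.737 within AVF-CKD and -0.034 within sham. Fbln5 had r = 0.714 with the endothelial list (permutation p = 0.00737, adjusted p = 0.187), and 0.438 without the 2 farthest libraries. Summed macrophage levels were 6508 to 12111 CPM in AVF-CKD and 6082 to 12431 CPM in sham. CPM values are parts of a fixed total, so a list that takes a larger part lowers the others, and how much of these relations comes from that was not tested.

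Genes most like Lox over the 12 libraries were Tnpo2 (r = 0.877), Ttll5, Ddah1, Mettl21b and Picalm (r = 0.856). Those most like Mfap5 were Rab31 (r = 0.881), Ptpru, Cilp2, Chek2 and Chst12 (r = 0.859). The r of Mfap5 with Mfap4 was at or above that of 99.7% of the 13589 genes searched, and the r of Lox with Fbn1 at or above that of 98.3%. Each was that gene's highest r with a member. The lowest were at or above 60.2% for Mfap5 (with Loxl2) and 62.2% for Lox (with Mfap4).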
